A study of Gallus gallus with 20 samples.

Results

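The genes described here are the protein-coding genes of chicken chromosomes 16, 25, 30, 31, 32 and 33 and of the unplaced scaffolds of the GRCg6a genome build. They were chosen by the chromosome and biotype that the deposited count table lists, without CRABP2 and without symbols that begin with KCN, RPL, RPS, NDUF, HSP, DNAJ, COL or SYT. This gave 1354 genes of 28021 in the table, of which 16779 were protein-coding; the exclusions, which go by symbol only, removed 12 genes. Chromosome 16 held 115 members, chromosome 25 held 303, chromosomes 30 to 33 held 727 (112, 190, 68 and 357), and 46 scaffolds held 209.

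All birds were male Korat chickens, a slow-growing line, reared from 200 chicks in individual cages with free access to feed and sampled at 10 weeks of age. The groups were birds of low and of high residual feed intake (RFI), the feed eaten beyond what weight and growth predict, so that a low value marks a bird that ate less than predicted. Each library is RNA pooled from birds, with 5 libraries by title in each of 4 groups: hypothalamus of low RFI, hypothalamus of high RFI, pituitary of low RFI and pituitary of high RFI. The design text gives 10 birds in 5 pools per group for the hypothalamus, and 8 birds in 4 pools of 2 per group for the pituitary, so the origin of the fifth pituitary library of each group is not given, and the spread measured is that between pools.

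Birds carry, beside a few large chromosomes, many very small ones called microchromosomes, which are rich in genes and in the bases G and C and are hard to assemble. Unplaced scaffolds are stretches of assembled sequence that have not been put on a chromosome. Chromosome 16 carries the major histocompatibility complex (MHC), whose class I and class II molecules show peptides to T cells, next to lectin-like, TRIM and CD1 genes.

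Gene models on these sequences were less complete in name and in expression than elsewhere. A symbol was given for 514 members (38.0%), against 76.9% of the 15413 other protein-coding genes, and for 23 of the 209 scaffold members (11%). The median model length was 1467 bases, against 2251 bases elsewhere. No read was counted in any of the 20 libraries for 187 members (13.8%), against 3.04% elsewhere. The filter on low counts left 720 members (53.2%) for the test in the hypothalamus and 739 (54.6%) in the pituitary, against 80.7% and 83.3% of other protein-coding genes. Results on tested members therefore leave out the members with few counts, and the 840 members without a symbol are counted but not named. Depth per library was 11418600 to 12647034 counts (hypothalamus) and 10262777 to 11960994 counts (pituitary), and members took 2.45 to 3.23% of them.

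Of the gene families on these chromosomes, the HOXC and CHIR genes had no or few counts in both tissues. The HOXC genes of chromosome 33, homeobox factors that pattern the trunk, had 8 members, 7 without a count in any library, and the highest value of any of them was 0.157 CPM (counts relative to the scaled library size) for HOXC4. The CHIR genes, immunoglobulin-like receptors of chicken leukocytes, had 9 members, none tested, with a highest value of 2.13 CPM. Of 20 members whose symbol begins with ED, genes of the epidermal differentiation complex of chromosome 25, 2 were tested between the tissues, and 1 of them was called in each direction. The highest value of these was 24.8 CPM, for EDSC.

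Tubulins and genes of translation were among the members most abundant per unit length. By the authors' length-scaled FPKM values, MLLT11 led chromosome 25 with mean levels of 800 FPKM (hypothalamus) and 222 FPKM (pituitary). On chromosomes 30 to 33 TUBA1A, an alpha tubulin, led the hypothalamus at 773 FPKM and lay at 234 FPKM in the pituitary. FAU, which encodes a ribosomal protein fused to a ubiquitin-like one, led the pituitary at 683 FPKM and lay at 507 FPKM in the hypothalamus. TUBB, a beta tubulin, led chromosome 16 at 333 FPKM in the hypothalamus, and RACK1, a scaffold protein of the ribosome, led it at 233 FPKM in the pituitary. On the scaffolds LENG8 lay at 63.2 and 80.8 FPKM and MED11, of the Mediator complex of transcription, at 51.5 and 37.6 FPKM. The models of MLLT11, FAU and MED11 are short, at 252, 276 and 354 bases against a median of 1467, which raises FPKM for a given count. TUBA1A, TUBA1B and TUBA1C are near-identical copies, so their reads can be split between them.

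In the hypothalamus, members were lower in low than in high RFI birds by a small amount that many of them shared, and none passed the test on its own. The comparison asks which genes differ between birds of contrasting feed efficiency. The median log2 fold (low minus high RFI) was -0.13 over the 720 tested members, of which 565 (78.5%) had a fold below 0. Over all 15179 genes tested the median was 0.01, and 48.2% lay below 0. Other protein-coding genes had a median of 0.02. By edgeR with Benjamini-Hochberg adjustment over all genes, 0 of 720 members and 0% of all genes tested passed an adjusted p of 0.05. At an unadjusted p under 0.05, 88 members (12.2%) were lower in low RFI, against 2.78% of all genes tested. In the other direction 2 members (0.278%) were higher, against 2.02% of all genes tested. The values of all 5 low RFI libraries lay below those of all 5 high RFI libraries for 23 members (3.19%), against 0.619% of all genes tested. For 0 members did they all lie above, against 0.303% of all genes tested. Members share the same 10 libraries, so these counts are not independent observations.

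The shift was largest on the scaffolds and on chromosome 30 and smallest on chromosome 16. The median log2 fold was -0.29 over 71 tested scaffold members, 63 of them below 0. On chromosome 30 it was -0.21 over 97 members, 88 of them below 0. Chromosome 32 had a median of -0.13, chromosome 33 of -0.11, chromosome 25 of -0.11 and chromosome 31 of -0.08. On chromosome 16 the median was -0.06 over 51 members, 28 of them below 0. Protein-coding genes of the next larger microchromosomes, 22 to 24 and 26 to 28, had a median of -0.05, and those of chromosomes 1 to 5 and Z had 0.03. Of the 5 scaffolds with at least 5 tested members, medians ran from -0.04 for KZ626819.1 to -0.48 for KZ626838.1. KZ626836.1, with the most members, had 16 of 17 tested members below 0.

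**Figure D1:**
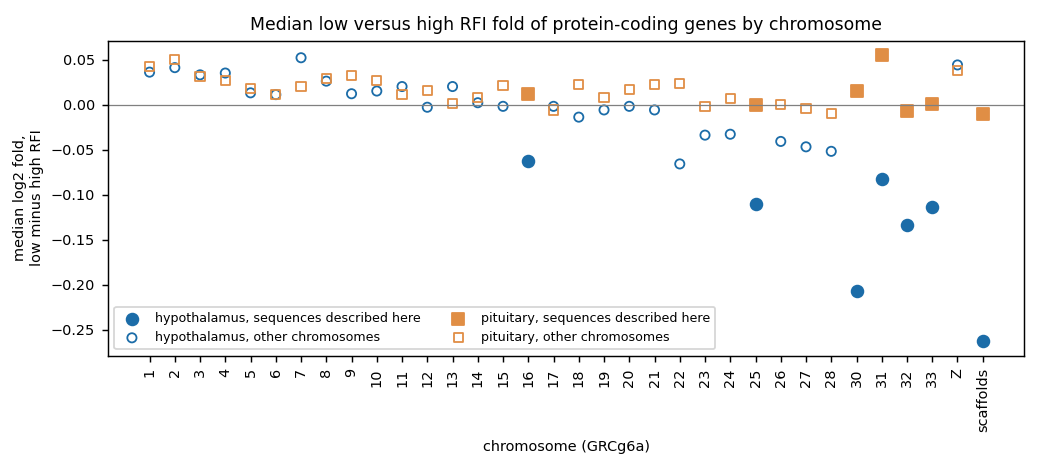
Median log2 fold, low minus high RFI (y axis), of tested protein-coding genes of each chromosome or of all scaffolds together (x axis), in the hypothalamus (circles) and pituitary (squares), with the sequences described here filled and before exclusions by name. In the hypothalamus the filled points lie between -0.06 for chromosome 16 and -0.26 for the scaffolds, and in the pituitary between -0.01 and 0.06.

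The median in the hypothalamus lay further below 0 for members of low level, whose folds also have the larger errors. With tested members split by level into 3 equal parts, the median log2 fold was -0.23 in the lowest (0.698 to 8.27 CPM), -0.15 in the middle and -0.08 in the highest (34.4 to 1245 CPM). The share of folds below 0 did not follow this order, at 73.3% in the lowest part, 83.8% in the middle and 78.3% in the highest. In 3 equal parts by model length it was -0.13, -0.13 and -0.14 from the shortest to the longest. Members with a symbol had a median of -0.10 and those without one -0.20. Genes without a protein-coding biotype on the same sequences had a median of -0.23 over 225 tested genes, 77.3% of them below 0. The 11 tested genes that were left out by name had a median of -0.05.

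The values of single libraries show the spread behind these medians. For the scaffolds, the median deviation of tested members from their mean in the tissue, in log2 CPM, was -0.15, -0.09, -0.18, 0.00 and -0.11 in the low RFI hypothalamus libraries. In the high RFI libraries it was 0.28, 0.21, 0.16, 0.07 and 0.08. The groups did not overlap, and low RFI library 4 lay nearest to the high RFI libraries. Chromosome 25 ran from -0.10 to -0.01 in low RFI and from 0.01 to 0.14 in high RFI, and chromosomes 30 to 33 from -0.13 to -0.00 and from 0.00 to 0.18. On chromosome 16 the groups overlapped, at -0.13 to 0.10 and -0.05 to 0.14. The mitochondrial share of counts was 14.3 to 20.1% in low RFI and 13.9 to 17.8% in high RFI hypothalamus libraries. Markers of oligodendrocytes, the myelinating cells of the brain, summed to 25403 to 51389 CPM in low RFI and 40947 to 65668 CPM in high RFI libraries, with 7 of 10 listed markers found. Markers of hypothalamic neurons summed to 3287 to 3832 CPM in low RFI and 3689 to 4027 CPM in high RFI, with 15 of 15 found. Members of this list went in both directions. AVP had group means of 216 CPM in low RFI and 593 CPM in high RFI, with single libraries from 27.4 to 1236 CPM. SNAP25 had 2215 and 2178 CPM, SYT1 506 and 477 CPM and SLC17A6 274 and 212 CPM. Markers of astrocytes and tanycytes summed to 4100 to 5163 CPM and 4497 to 6250 CPM, with 8 of 9 found. Among them GFAP had group means of 2109 CPM in low RFI and 2914 CPM in high RFI. SLC1A3, at 795 and 748 CPM, and SLC1A2, at 155 and 128 CPM, went the other way. The ranges of the 2 RFI groups overlapped for each list, and the part of these values in the shift was not tested.

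**Figure D2:**
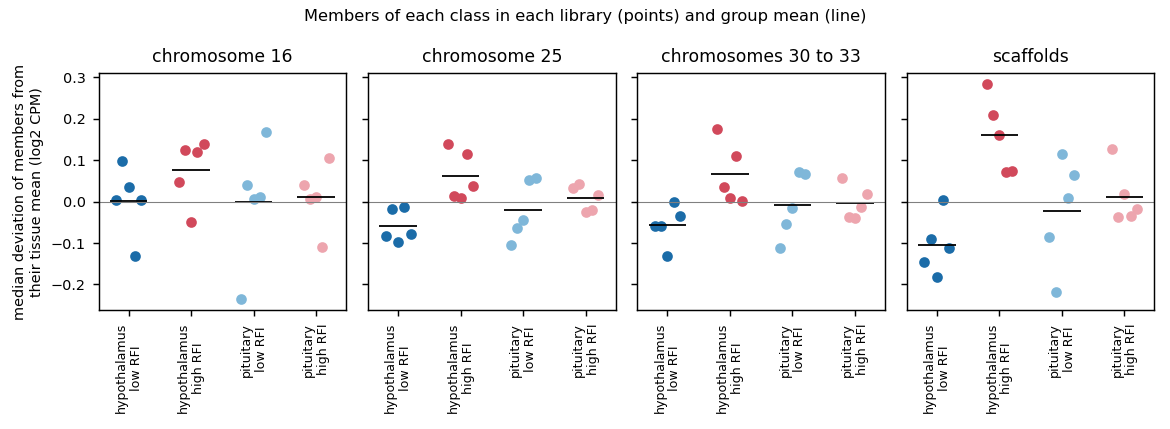
Median deviation of tested members from their mean over the 10 libraries of a tissue, in log2 CPM (y axis), for each library (points) of the 4 groups (x axis), in 4 panels by chromosome class, with the group mean as a line. In the scaffold panel the low RFI hypothalamus libraries end at 0.00 and the high RFI libraries begin at 0.07, while the pituitary groups overlap in each panel.

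By DESeq2, 1 member (0.139%) was called in the hypothalamus, where 5 of all 15179 genes (0.0329%) were called. The members described next were among those of smallest p with a fold below 0, and each had an edgeR adjusted p of 0.964. CCDC130, related to a splicing factor, lay at 22, 19.8, 19.6, 25.3 and 26.6 CPM in low RFI and 30.8, 42.8, 29.5, 32.5 and 28.7 CPM in high RFI hypothalamus libraries. PYGO2, a coactivator of Wnt target genes, lay at 12.2, 12, 11.1, 11.7 and 10.7 CPM in low RFI and 16.2, 14.5, 14.9, 16.8 and 14.5 CPM in high RFI. CD1B, a chromosome 16 gene of the family that shows lipids to T cells, lay at 5.99, 6.05, 8.62, 7.66 and 6.12 CPM in low RFI and 10.5, 11.9, 10.9, 8.80 and 11.6 CPM in high RFI. For these 3 genes the groups did not overlap, and the log2 folds were -0.54 (SE 0.14), -0.41 (SE 0.11) and -0.64 (SE 0.15). MINDY1, a deubiquitinase, lay at 32.8, 34.3, 37.9, 32.1 and 33 CPM in low RFI and 38.6, 46.3, 45.4, 38.5 and 44.0 CPM in high RFI, again without overlap. Its log2 fold was -0.32 (SE 0.09), and AKAP8, a nuclear anchor of protein kinase A, had one of -0.31 (SE 0.09). CD1B and its neighbour CD1C are similar genes, so its count is uncertain. The model of PYGO2 overlaps that of SHC1 and the model of CCDC130 that of MRI1, so reads can be shared there too.

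**Figure D3:**
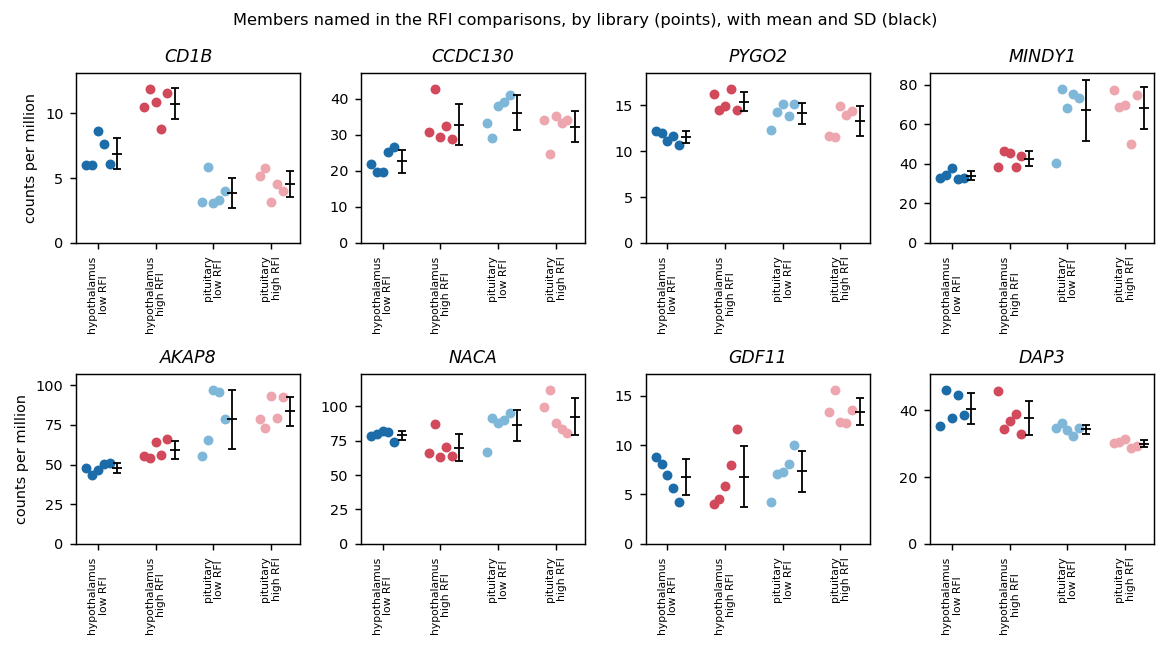
Levels in CPM (y axis, from 0) of 8 named members in each library (points) of the 4 groups (x axis), with mean and SD of 5 libraries in black. For CD1B, CCDC130, PYGO2, MINDY1 and AKAP8 the low RFI hypothalamus libraries lie below the high RFI ones. For GDF11 the same holds in the pituitary, where the low RFI libraries reach 9.96 and the high RFI ones begin at 12.2. For DAP3 the low RFI pituitary libraries, from 32.2, lie above the high RFI ones, which reach 31.4.

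In the opposite direction the named members had larger p and overlapping groups. NHLH1, a transcription factor of developing neurons, lay at 1.85, 4.06, 3.49, 3.56 and 4.23 CPM in low RFI and 0.487, 1.75, 1.24, 3.17 and 0.892 CPM in high RFI hypothalamus libraries. Its log2 fold was 1.18 (SE 0.42, edgeR adjusted p = 0.964). C1QL4, a secreted protein related to complement C1q, had a log2 fold of 1.00 (SE 0.38) and lay between 3.57 and 20.4 CPM. TMEM106C, NACA, a chaperone of nascent proteins, OLFM2 and SNRPD2, a core protein of spliceosomal particles, had log2 folds of 0.22, 0.17, 0.16 and 0.13. With 1 library left out, NACA reached 0.26 without high RFI library 2, OLFM2 fell to 0.10 without high RFI library 5 and SNRPD2 to 0.07 without low RFI library 1.

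In the pituitary the members showed no shared shift. The median log2 fold was 0.00 over 739 tested members, 359 (48.6%) of them below 0, against 0.02 over all 15786 genes tested. Chromosome 16 had a median of 0.01, chromosome 25 of -0.00, chromosomes 30 to 33 of 0.01 and the scaffolds of -0.00. By edgeR 0 members and 0% of all genes passed the adjusted p, and by DESeq2 also 0 members and 0% of all genes. At an unadjusted p under 0.05, 7 members (0.947%) were lower in low RFI, against 1.05% of all genes, and 4 (0.541%) were higher, against 0.824%. The groups did not overlap for 1 member that was lower (0.135%, against 0.177% of all genes) and 2 that were higher (0.271%, against 0.0887%). The shares without overlap rest on 1 and 2 members only and are imprecise.

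GDF11, a secreted factor of the TGF-beta family on chromosome 33, had the smallest p of the named members in the pituitary. It lay at 4.20, 7.11, 7.23, 8.11 and 9.96 CPM in low RFI and 13.3, 15.6, 12.3, 12.2 and 13.5 CPM in high RFI libraries. The groups did not overlap, and the log2 fold was -0.87 (SE 0.21, edgeR adjusted p = 0.999). In the hypothalamus its log2 fold was -0.01 (SE 0.30). NOP53, a ribosome assembly factor, PIP5K1A, a lipid kinase, HDAC7, a histone deacetylase, GLI1, a transcription factor of hedgehog signalling, and KANSL2, of a histone acetyltransferase complex, were the other 5 named members below 0. DAP3, a protein of the mitochondrial ribosome, lay at 34.7, 36.1, 34.1, 32.2 and 34.6 CPM in low RFI and 30.3, 30.6, 31.4, 28.6 and 29.2 CPM in high RFI, with a log2 fold of 0.20 (SE 0.08, edgeR adjusted p = 0.999). MYO1A, a myosin of epithelial brush borders, and KRT5, a keratin of basal epithelia, had log2 folds of 1.86 (SE 0.74) and 2.43 (SE 1.21). Both rested on low RFI library 4, at 13.4 and 20.9 CPM, where the other 4 low RFI libraries reached at most 3.56 and 2.32 CPM. Without that library the log2 folds were 0.76 and 0.13.

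The difference between tissues in the RFI fold was tested in 1 fit of all 20 libraries. Of 774 members tested, 0 passed the adjusted p by edgeR, as did 0% of all genes, and by DESeq2 0 members passed, against 0.0119% of all genes. At an unadjusted p under 0.05 there were 28 members (3.62%), against 2.34% of all genes. Among members of small p with a higher fold in the pituitary, the difference of log2 folds was 0.70 (SE 0.19) for CCDC130 and 0.50 (SE 0.15) for PYGO2. With a lower fold in the pituitary the members of smallest p were NHLH1, GDF11 and SARNP, an mRNA export factor, at -2.40 (SE 0.96), -0.86 (SE 0.39) and -0.27 (SE 0.13). The value of NHLH1 rested on pituitary high RFI library 4, at 6.16 CPM where the other 4 had 0.385 to 0.848, and was -0.79 without it. That the shift was measured in one tissue and not in the other is therefore a description, and the difference passed the test for 0 single members.

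Between the tissues themselves most members differed. The comparison of all 10 hypothalamus with all 10 pituitary libraries called 494 of 774 members (63.8%) by edgeR with Benjamini-Hochberg adjustment, against 70.8% of all 16747 genes tested. Of these, 214 (27.6%) were higher in the hypothalamus, against 32.5% of all genes, and 280 (36.2%) were higher in the pituitary, against 38.3%. Chromosome 25 had 132 of 197 called, chromosomes 30 to 33 had 296 of 440, the scaffolds 40 of 79 and chromosome 16 had 26 of 58. In bulk tissue, fewer cells of a type and less RNA per cell cannot be told apart. The hypothalamus libraries carried markers of oligodendrocytes and astrocytes and at most 39.9 CPM of summed anterior pituitary endocrine markers. These endocrine markers are hormones and transcription factors, with 9 of 10 listed found, and they lay at 19377 to 94413 CPM in the pituitary. The hypothalamic neuron list summed to 3287 to 4027 CPM in the hypothalamus and 10692 to 25748 CPM in the pituitary. It holds POMC, also on the endocrine list, with pituitary group means of 18647 and 18007 CPM. Other members of that list went in both directions. CARTPT was higher in the pituitary, at group means of 752 and 650 against 10.1 and 5.86 CPM, and so was AGRP, at 3.93 and 8.81 against 0.669 and 0.266. SNAP25 was higher in the hypothalamus, at 2215 and 2178 against 442 and 248 CPM. Its single pituitary libraries ran from 83.9 to 1552 CPM in low RFI and from 78.9 to 808 CPM in high RFI. Pituitary libraries low 1 and high 4 had the lowest sums of these endocrine markers. Low 1 had 24906 CPM of oligodendrocyte markers where the other low RFI pituitary libraries had 506 to 2558. High 1 had 12023 CPM of them where the other high RFI pituitary libraries had 1210 to 3788. Hypothalamus library low 2 had 27830 CPM of choroid plexus and pineal markers where the others had at most 122. Without the 3 libraries pituitary low 1, pituitary high 4 and hypothalamus low 2, 508 members were called. Pituitary high 1 was kept in that fit.

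On chromosome 16, given apart, 5 of the 7 members of the list of MHC class I, class II and peptide loading were higher in the pituitary, 1 was higher in the hypothalamus and 1 was not called. Of all genes, 38.3% and 32.5% were higher in the pituitary and in the hypothalamus. BF2, the main classical class I gene of chickens (positions 2606528 to 2609057, minus strand), had the highest CPM among them. It lay at 164, 183, 140, 70.8 and 98.3 CPM in low RFI and 275, 106, 98.3, 159 and 241 CPM in high RFI hypothalamus libraries. In the pituitary it lay at 172, 364, 241, 247 and 472 CPM in low RFI and 312, 428, 459, 221 and 266 CPM in high RFI. The tissues overlapped, and the log2 fold (hypothalamus minus pituitary) was -1.06 (SE 0.24, n = 10 and 10, edgeR adjusted p = 0.000635). BF1, the other class I gene (positions 2565405 to 2595262, plus strand), averaged 45.7 ± 17.7 CPM (SD, n = 10) in hypothalamus libraries and 155 ± 82.3 in pituitary ones, with a log2 fold of -1.78 (SE 0.30, edgeR adjusted p = 3.6e-05). TAPBP, tapasin, which helps load peptides on class I, had 33.7 ± 7.33 and 90.8 ± 34.5 CPM and a log2 fold of -1.43 (SE 0.20, edgeR adjusted p = 5.03e-06).

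The class II genes of the same region did not share one direction. BLB1, a class II beta chain, had means of 18.1 ± 6.54 CPM (SD, n = 10) and 41.5 ± 12.7 CPM, with a log2 fold of -1.21 (SE 0.21, edgeR adjusted p = 6.62e-05). BLB2, its near-identical copy, had 23.5 ± 18.7 and 38.1 ± 17.1 CPM and a log2 fold of -0.80 (SE 0.34, edgeR adjusted p = 0.0446), which passed by little and was lost with median-ratio scaling (edgeR adjusted p = 0.0527) and without the low-count filter (edgeR adjusted p = 0.0666). BLB2 lay at 62.2 and 55.2 CPM in the high RFI hypothalamus libraries 1 and 5 and at 10.9 to 17.0 CPM in the other 8. In high RFI library 1 BLB1 was at 8.96 CPM, its lowest value of the 20 libraries. DMB1, of the class II peptide exchange molecule, went the other way with a log2 fold of 1.27 (SE 0.29, edgeR adjusted p = 0.000668). It was low in level, with means of 2.71 CPM (hypothalamus) and 1.15 CPM (pituitary), and reached 3.61 CPM in pituitary high RFI library 4. DMB2 was at 8.25 and 8.60 CPM and not called. The model of BF1 overlaps those of BLB1, TAPBP, BLB2, BRD2, DMB2, MHCDMA and DMB1, and whether strand was used in counting is not given, so reads can be shared among them. BF1 and BF2, BLB1 and BLB2, and DMB1 and DMB2 are similar copies, and their separate values are uncertain.

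Other genes of chromosome 16 split between the tissues. TRIM7, a ubiquitin ligase, lay at 0.0974 to 0.604 CPM in the 10 hypothalamus libraries and 2.02 to 9.79 CPM in the pituitary, without overlap, at a log2 fold of -3.90 (SE 0.29, edgeR adjusted p = 2.93e-09). BLEC3, a lectin-like gene, MHCIY, a class I-like gene of the MHC-Y region, and RACK1 were also higher in the pituitary, with log2 folds of -1.91, -1.41 and -0.89. C4, a complement component, and BRD2, a reader of acetylated histones, passed with folds of -0.56 (SE 0.24, edgeR adjusted p = 0.0431) and -0.20 (SE 0.07, edgeR adjusted p = 0.0158). The call of C4 passed by little and was lost with median-ratio scaling (edgeR adjusted p = 0.0547) and without the low-count filter (edgeR adjusted p = 0.0534). Without pituitary high RFI library 5 the fold of C4 was -0.34. TUBB lay at 550 to 841 CPM in the hypothalamus and 138 to 456 CPM in the pituitary, a log2 fold of 1.53 (SE 0.22, edgeR adjusted p = 8.44e-06). CD1B, TRIM27.2 and PFDN6, a subunit of a chaperone for tubulin and actin, were higher in the hypothalamus with folds of 1.04, 1.25 and 0.57. TRIM27.2 was low in level, with means of 1.09 CPM (hypothalamus) and 0.454 CPM (pituitary), and did not pass the low-count filter in the pituitary alone. The model of TRIM27.2 overlaps that of RACK1, that of TUBB overlaps FLOT1, and that of TRIM7.2 overlaps BLEC3 and ZNF692. Reads can be shared there too. FLOT1, PPP1R10, TRIM7.2, POLR2I, ZNF692, DMB2, ZNF226L, BZFP1, MHCDMA and TRIM27.1 were not called. In the list of other MHC region genes, 5 of 11 tested members were higher in the pituitary and 2 in the hypothalamus, against 38.3% and 32.5% of all genes.

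Markers of leukocytes did not give one direction beside these genes. Of 19 listed markers 16 were found, and their summed level was 299 to 450 CPM in the hypothalamus and 206 to 351 CPM in the pituitary. CD3E, a CD3 chain that associates with the T cell receptor, had group means of 3.10 and 2.41 CPM in the hypothalamus and 13.9 and 10.2 CPM in the pituitary. CSF1R, the receptor that marks macrophages and microglia, had 206 and 245 CPM in the hypothalamus and 119 and 140 CPM in the pituitary. CTSS, a protease of antigen-presenting cells on chromosome 25, was higher in the pituitary with a log2 fold of -0.84 (SE 0.19, edgeR adjusted p = 0.000565). Pituitary low RFI library 1, with the brain markers, had the lowest pituitary values of BF2, BF1, TAPBP, RACK1, TRIM7 and BLB2. The part of cell makeup in these differences was not tested.

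**Figure D4:**
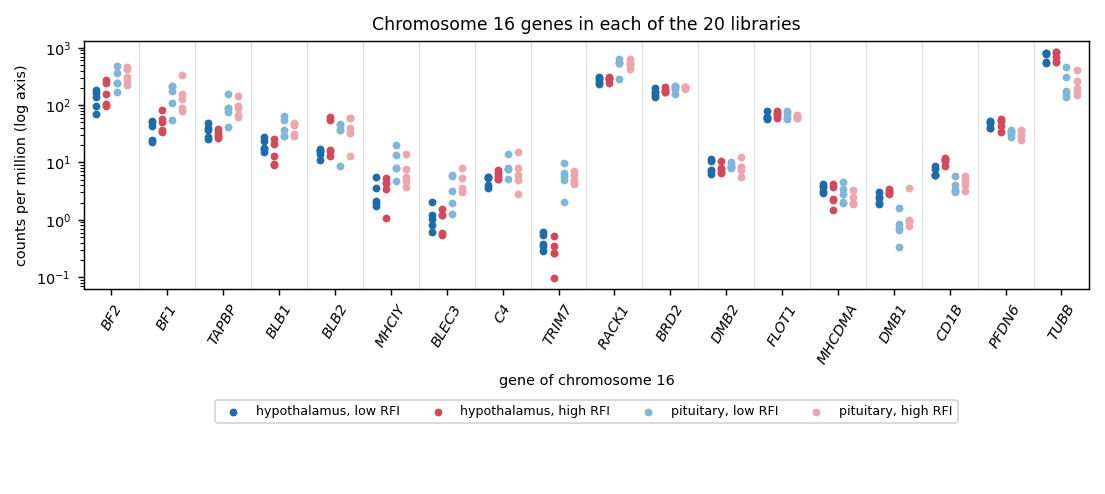
Levels in CPM (log y axis) of 18 chromosome 16 genes (x axis) in each of the 20 libraries (points, coloured by group). TRIM7 separates the tissues without overlap, between 0.604 CPM at most in the hypothalamus and 2.02 CPM at least in the pituitary, whereas low and high RFI points of the same tissue overlap in nearly every gene.

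Of 12 members of the list of synapse and excitability genes, 8 were higher in the hypothalamus and 1 in the pituitary, against 32.5% and 38.3% of all genes, with a median log2 fold of 1.17. Outside the list, C1QL4 had the highest fold towards the hypothalamus of the members that the rule for the tissues named, 4.04 (SE 0.52, edgeR adjusted p = 2.26e-06). SV2A, a synaptic vesicle protein of chromosome 25, lay between 211 and 290 CPM in the hypothalamus. In the pituitary it lay between 15.1 and 24.6 CPM in 8 libraries, with 196 CPM in low RFI library 1 and 91.1 CPM in high RFI library 4. Its log2 fold was 2.53 (SE 0.46, edgeR adjusted p = 9.2e-05), and 3.70 without the 3 libraries that stood apart. SYP, synaptophysin, and CHRNB2, a nicotinic receptor subunit, had log2 folds of 2.11 (SE 0.30) and 1.44 (SE 0.14). The 2 members of the glia and brain matrix list, BCAN (brevican) and HAPLN2, a link protein that binds it to hyaluronan, both passed. BCAN lay at 163 to 285 CPM in the hypothalamus and 8.88 to 135 CPM in the pituitary, with a log2 fold of 2.44 (SE 0.38, edgeR adjusted p = 1.66e-05). HAPLN2 had a log2 fold of 3.03 (SE 0.53), ADAMTS4, a protease that cleaves brevican, one of 3.16 (SE 0.52), and ACHE, acetylcholinesterase on chromosome 31, one of 2.43 (SE 0.63).

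BCAN, ADAMTS4 and HAPLN2 had log2 folds below 0 for RFI in the hypothalamus, with unadjusted p of 0.00791, 0.014 and 0.0638 by edgeR, and none passed the adjusted p. ADAMTS4 lay at 57.3, 31, 51.9, 72.1 and 52.2 CPM in low RFI and 69.9, 83.5, 76.9, 69.7 and 67.7 CPM in high RFI hypothalamus libraries. The groups overlapped through low RFI library 4, and the log2 fold was -0.48 (SE 0.17, edgeR adjusted p = 0.964). BCAN had a log2 fold of -0.30 (SE 0.09) without overlap, at 163 to 220 CPM in low RFI and 227 to 285 CPM in high RFI, and HAPLN2 one of -0.38 (SE 0.19). Low RFI library 2, with the choroid plexus and pineal markers, had the lowest value of all 3 genes.

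Keratins and a receptor of peripheral nerve were among the members raised in the pituitary. ERBB3, a neuregulin receptor used by Schwann cells, had a log2 fold of -3.89 (SE 0.38). KRT7 and KRT18, keratins of simple epithelia on chromosome 33, had log2 folds of -4.15 (SE 0.36) and -6.94 (SE 0.54), and KRT7 lay at 88.8 to 432 CPM in the pituitary. GALNT6, which starts O-linked glycosylation, and TTC24 had log2 folds of -4.84 and -5.45. PFKM, a phosphofructokinase, had one of -4.20 (SE 0.68). It lay at 1.05 to 96.4 CPM in the pituitary and 1.13 to 2.46 CPM in the hypothalamus, so the tissues overlapped. GOLPH3L, a Golgi protein, had -5.34 (SE 0.90) with 30.3 CPM in pituitary low RFI library 4 and 0.162 to 10.1 CPM in the other 9. In the hypothalamus KRT18 lay at 0 to 0.274 CPM, GOLPH3L at 0 to 0.268, TTC24 at 0.0873 to 0.638 and ERBB3 at 0.175 to 1.41. These genes did not pass the low-count filter in the hypothalamus alone, so the size of their folds is uncertain. Markers of meninges, fibroblasts and vessels summed to 1082 to 15139 CPM in the pituitary and 494 to 1056 CPM in the hypothalamus, and their part in these differences was not tested.

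Calcium-binding S100 genes of chromosome 25 were called in both directions. Of 7 tested members 6 were higher in the pituitary, where 38.3% of all genes were. S100A4 was higher in the hypothalamus, as were 32.5% of all genes, with a log2 fold of 0.96 (SE 0.19, edgeR adjusted p = 0.000247). S100A11 had means of 5.94 ± 1.72 CPM (SD, n = 10; hypothalamus) and 49.6 ± 21.8 CPM (pituitary), a log2 fold of -3.06 (SE 0.27). S100A6 lay at 5.20 to 13.9 and 12.8 to 104 CPM and had a log2 fold of -2.81 (SE 0.30). S100A9, S100A1, S100A16 and S100A10 had folds of -2.06, -1.83, -1.20 and -0.89. The models of S100A6 and S100A9 overlap that of EDSC. The model of S100A11 overlaps that of COPA, which had means of 185 CPM (hypothalamus) and 260 CPM (pituitary), so reads can be shared. Related S100 genes are similar in sequence, and how reads that fit several were counted is not given.

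For the lists of more general roles, the counts stand beside 32.5% of all genes higher in the hypothalamus and 38.3% higher in the pituitary, and the lists were not tested against each other. Of 10 members of metabolism and mitochondria, 7 were higher in the hypothalamus and 0 in the pituitary, among them ATP5F1B and ATP5MC2, subunits of ATP synthase, with log2 folds of 1.06 (SE 0.12) and 0.91 (SE 0.11). Of 11 members of the cytoskeleton list, 8 were higher in the hypothalamus and 2 in the pituitary, LMNA, a lamin of the nuclear envelope, and ACTN4, an actinin, with folds of -1.61 and -0.29. In protein folding, degradation and transport, 8 of 14 were higher in the hypothalamus and 5 in the pituitary, among the latter CALR, a chaperone of the endoplasmic reticulum, at -0.74 (SE 0.10) and COPA, of the Golgi coat, at -0.50 (SE 0.06). In the list of splicing and RNA processing, 2 of 9 were higher in the hypothalamus, PRCC and CDC37. The list counts CDC37, although it is a cochaperone of kinases and not a splicing factor. In the pituitary 5 were higher, among them CLK2, a kinase of splicing factors, at -0.55 (SE 0.08). In growth factor signalling, 5 of 15 tested members were higher in the hypothalamus and 7 in the pituitary, with INSRR, an insulin receptor relative, at 1.71 and SHC1, an adaptor of receptor kinases, at -1.01. The folds named here had an edgeR adjusted p of 0.00338 for ACTN4 and lower for the others.

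Chromatin and transcription genes were the list with the most members, 22, all tested. Of these 10 were higher in the pituitary, where 38.3% of all genes were, and 1, SMARCA4, a remodelling ATPase, was higher in the hypothalamus, with a log2 fold of 0.52 (SE 0.15, edgeR adjusted p = 0.00445). HDAC7 and SMARCD1 were higher in the pituitary at -0.45 (SE 0.06) and -0.24 (SE 0.05). In the RFI comparison of the hypothalamus 22 of the 22 had log2 folds below 0, against 78.5% of members and 48.2% of all genes. Their median was -0.15, against -0.13 for all members and 0.01 for all genes, and 0 passed by edgeR. In the pituitary 17 of 22 lay below 0, against 48.6% of members and 44.5% of all genes, with a median of -0.05. The other lists had medians in the hypothalamus between -0.40 for MHC class I and II, where 4 of 7 lay below 0, and 0.02 for synapse genes, where 5 of 11 lay below 0. In the pituitary their medians ran from -0.10 for S100 and epidermal genes, with 4 of 7 below 0, to 0.51 for synapse genes, with 2 of 12. The cytoskeleton list had 0 of 11 below 0 there. Lists were drawn up with earlier results known, and their genes share the same libraries.

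**Figure D5:**
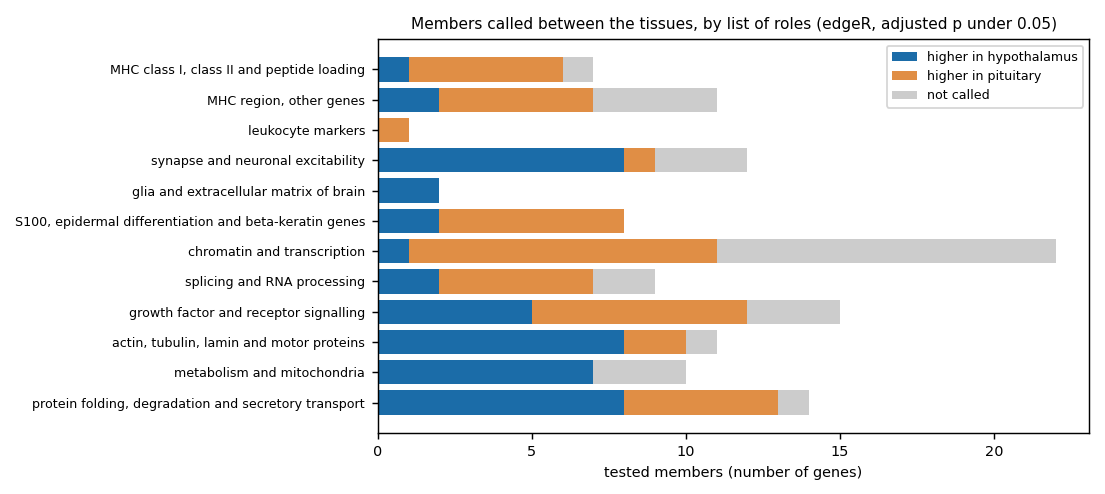
Number of tested members (x axis) of each list of roles (y axis) that were called higher in the hypothalamus, higher in the pituitary or not called, by edgeR at an adjusted p under 0.05. Synapse, cytoskeleton and metabolism members lie mostly on the hypothalamus side (8, 8 and 7 genes), and MHC class I and II and S100 members mostly on the pituitary side (5 and 6 genes). Of 22 chromatin members, 10 lie on the pituitary side and 1 on the hypothalamus side. Over all genes tested, 38.3% were higher in the pituitary and 32.5% in the hypothalamus.

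Members without a symbol were counted by class only. Of 330 such members tested between the tissues, 76 were higher in the hypothalamus and 99 in the pituitary, against 32.5% and 38.3% of all genes.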

How the data were processed

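RNA of hypothalamus and pituitary was sequenced in 20 libraries of pooled birds, 5 per group by title. The authors deposited raw read counts per gene, and per the submitters' processing notes reads were aligned with HISAT2 2.0.5 to GRCg6a and DESeq2 1.20.0 was used. The sources used here do not give the counting tool, its strand setting or the annotation release. The authors deposited FPKM too, which equals the count divided by gene length and a scaled library size. Column names tied each of the 20 columns to its library.

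The counts were tested over all genes by the robust quasi-likelihood test of edgeR 4.0.16 (R 4.3.3) after filterByExpr and TMM scaling, and p-values adjusted by Benjamini-Hochberg were called under 0.05. Each tissue was fitted alone for RFI, and all 20 libraries together for the tissues and for the difference of folds. Log2 folds come with a standard error (SE). Levels are CPM scaled over all 20 libraries, and deviations are log2 CPM with a prior count of 2. DESeq2 1.42.0, median-ratio scaling, no low-count filter, a replicate block and leaving out each library were the alternatives, and leaving out the 3 libraries that stand apart was added after the data were seen. The steps were tested on simulated data.

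Named members have a symbol and are, in the RFI tests, the 6 of smallest p per direction; between tissues, the 8 of largest fold per direction with at least 5 CPM; tested chromosome 16 members of at least 1 CPM; the 4 of highest FPKM per class and tissue; up to 2 per list of roles and direction; and the 3 of smallest p per direction in the difference of folds. S100 genes, marker genes and families outside this rule were named after their values were seen. The members, the 12 lists of roles and the tests were chosen with earlier results of these data known. Between libraries of 1 group, chi-square over degrees of freedom was at least 7.86, and no library was counted as a repeat. No source ties libraries to separate pools in the pituitary, and p-values reflect spread between libraries, which may be partly technical. Some results that this rule would give are not reported here.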

Additional observations from a re-analysis of the deposited data

Results flagged for a closer look

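In 34 of 321 groups of 5 values (10.6%), the highest or lowest library lay apart from the other 4. Its gap to the nearest of them was over 0.71 of the whole range, a rule with a nominal rate of about 1 in 20. That rate is for independent, normally distributed values, and these genes share libraries, so the 10.6% was not tested against it. Pituitary low RFI library 1 stood above the other low RFI libraries in 10 genes, most of them of neurons and brain matrix. These were ACHE at 245 CPM (others 7.23 to 33.4), SV2A at 196 (15.1 to 22.5), BCAN at 135 (8.88 to 36.3), HAPLN2 at 83.2 (3.21 to 10.5) and RND1, a small GTPase, at 42.2 (3.61 to 11). CHRNB2 was at 36.7 (16.4 to 20.2), ADAMTS4 at 32 (1.92 to 2.70), CACNG7, a subunit of calcium channels and glutamate receptors, at 17.9 (1.18 to 4.56), INSRR, an insulin receptor relative, at 11.3 (2.20 to 3.44) and C1QL4 at 3.72 (0.00 to 0.753). In the same library BLB2 was low, at 8.73 CPM where the others had 36.8 to 47.7.

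Pituitary high RFI library 4 stood apart in 9 genes. It was high for TUBA1A at 513 CPM (others 214 to 290), ACHE at 167 (10.6 to 21.8), SV2A at 91.1 (15.5 to 24.6), SYP at 39.0 (10.1 to 15.2) and RND1 at 32.7 (4.16 to 6.78). It was also high for CACNG7 at 10.8 (0.924 to 2.42), NHLH1 at 6.16 (0.385 to 0.848) and DMB1 at 3.61 (0.77 to 1.00), and low for KRT18 at 3.38 (9.15 to 11.4). Pituitary high RFI library 1 was high for ADAMTS4 at 16.8 CPM (1.85 to 4.21) and INSRR at 5.87 (1.46 to 2.54).

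Other pituitary libraries stood apart in single genes. Low RFI library 4 was high for GOLPH3L at 30.3 CPM (others 0.162 to 7.19), KRT5 at 20.9 (0.157 to 2.32) and MYO1A at 13.4 (1.26 to 3.56). High RFI library 2 was low for BRD2 at 189 CPM (204 to 210) and CCDC130 at 24.8 (33.4 to 35.1) and high for MYO1A at 2.48 (0.54 to 1.05). High RFI library 5 was high for GOLPH3L at 10.1 CPM (1.04 to 3.25), and high RFI library 3 for PPP1R10 at 30 (25.2 to 26.3).

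In the hypothalamus 4 values stood apart. High RFI library 2 was high for CCDC130 at 42.8 CPM (28.7 to 32.5), one of the genes of smallest p for RFI, and high RFI library 5 for KRT7 at 44.4 (7.40 to 16.3). High RFI library 1 was low for COPA at 172 CPM (188 to 193). Low RFI library 4 was high for FLOT1 at 78.4 CPM (56.9 to 62.8).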

How the results depend on the processing

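The number of members called for RFI in the hypothalamus was 0 under each alternative except DESeq2, which called 1; the cause was not tested. In the pituitary and for the difference of folds it was 0 under each alternative run. Between tissues it was 479 to 512 under other settings and 474 to 510 with 1 library left out. The median log2 fold of members in the hypothalamus stayed below 0 under each alternative: with 1 library left out it was -0.15 to -0.11 for all members, -0.31 to -0.26 for scaffolds and -0.12 to -0.01 for chromosome 16. In the pituitary the median of all members ran from -0.02 to 0.03 with 1 library left out. POLR2I, not called between tissues, turned to 0.02 with DESeq2 and 0.02 with median-ratio scaling. With 1 library left out, uncalled genes ran across 0: POLR2I from -0.04 to 0.03, FLOT1 from -0.00 to 0.06, TRIM7.2 from -0.03 to 0.12, DMB2 from -0.12 to 0.03 and TRIM27.1 from -0.28 to 0.05. The tissue calls of C4 and BLB2 were lost when most single libraries were left out, and their direction was kept. Correlations of same-numbered libraries ran from -0.132 to 0.185 (hypothalamus, low with high), -0.096 to 0.388 (pituitary) and -0.396 to 0.304 (across tissues). A low correlation cannot show that same-numbered libraries came from different birds, so whether the replicate numbers pair the samples was not settled. With the replicate block 479 members were called between tissues and 0 for RFI in either tissue, and C4 lost its tissue call (fold -0.43, edgeR adjusted p = 0.165). Depth limited the test to members with enough counts, 57.2% of them between tissues.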

Other observations

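Solute carriers on these sequences, transporters of the cell membrane, had 9 members, of which 8 were tested between tissues, with 5 higher in the hypothalamus and 1 in the pituitary, and the highest level of any library was 396 CPM for SLC27A1, a fatty acid transporter. Zinc-finger genes with a ZNF symbol had 6 members, all 6 tested, with 1 higher in the hypothalamus and 3 in the pituitary. Of 7 TRIM members 5 were tested, with 1 and 2 called. Of 6 keratin members 4 were tested, 3 of them higher in the pituitary, and KRT80 lay at 0.917 and 1.38 CPM and was not called. These counts stand beside 32.5% of all genes higher in the hypothalamus and 38.3% higher in the pituitary, and the families were not tested against these shares.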
